A study of Mus musculus with 12 samples.

Results

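The core autophagy machinery is described here through 37 protein-coding genes, chosen by symbol from the 55450 genes of the deposited expected-count table. The genes form the ULK1 kinase complex (5 genes), the class III phosphatidylinositol 3-kinase complexes (7), the membrane supply and phosphoinositide-reading proteins ATG9A, ATG2 and the WIPI propellers (7), the 2 ubiquitin-like conjugation systems (6), the ATG4 proteases (4), the LC3 and GABARAP proteins (5), and VMP1, syntaxin 17 and EPG5, which act on membranes, fusion and tethering (3). Total RNA was sequenced from the brains and livers of male mice, 7 to 9 weeks old, that were Vaultrc5+/+ or Vaultrc5-/-. Vaultrc5 encodes the mouse vault RNA, a short RNA polymerase III transcript. Each of the 4 groups (wild-type brain, knockout brain, wild-type liver, knockout liver) had 3 libraries. The titles call the wild-type samples flx, and the labels do not state how the null allele was made. Nor do they state whether samples of 1 group came from separate animals or a brain and a liver of the same number from 1 mouse, so p-values measure the spread between these samples.

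Autophagy delivers cytoplasm to the lysosome. The ULK1 complex and a phosphatidylinositol 3-kinase complex start a membrane cisterna, ATG9 vesicles and ATG2 feed lipid into it, and WIPI proteins recruit the conjugation machinery that attaches LC3 and GABARAP proteins to the growing membrane. The closed autophagosome then fuses with a lysosome. Liver is a classical tissue for starvation-induced autophagy, and neurons depend on constitutive autophagy for their survival.

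Library totals were 14844971 to 18567381 expected counts in brain and 23247449 to 27155480 in liver. The 37 genes took 0.167% to 0.230% of each total, and their lowest count in any library was 49 (Atg10) and their highest 7894 (Gabarapl1). All 37 passed the filter on low counts in each comparison. Counts of Vaultrc5 were 33, 39 and 48 across the Vaultrc5+/+ livers and 4, 1 and 4 across the Vaultrc5+/+ brains, and all 6 knockout libraries were at 0. The genotype labels thus rest on few counts in brain. The hepatocyte transcript Alb stayed at or under 5 counts in each brain library and reached 714287 or more in each liver. The neuronal transcript Snap25 reached 31003 or more in each brain and stayed at or under 3 in each liver. These are bulk tissues, in which fewer cells of a type and less RNA per cell cannot be told apart.

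The LC3 and GABARAP genes encode the proteins that are fixed to the membrane, and they differ in the stretch that ATG4 trims. The last 45 coding bases of the 5 genes, stop codon included, are shown because the capitals mark the last in-frame GGN triplet, a glycine codon. ATG4 exposes the glycine that is then joined to lipid.
Map1lc3a: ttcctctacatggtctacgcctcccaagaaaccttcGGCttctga
Map1lc3b: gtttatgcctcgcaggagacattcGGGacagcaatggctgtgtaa
Gabarap: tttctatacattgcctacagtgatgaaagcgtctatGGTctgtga
Gabarapl1: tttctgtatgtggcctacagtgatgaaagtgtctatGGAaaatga
Gabarapl2: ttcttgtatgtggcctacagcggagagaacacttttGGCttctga
The sequences were read from GRCm38 along the first-listed coding transcript of each gene in GENCODE M21 (5′ to 3′). In 4 of the 5 genes 1 codon separates the triplet from the stop codon, and in Map1lc3b 5 codons do. Across whole coding sequences, aligned end to end and taken over the longer of each pair, Map1lc3a and Map1lc3b were 74.1% identical and Gabarap and Gabarapl1 74.9%, and the other pairs 49.5% to 63.8%. The share of 50-base stretches that also occur in transcripts of another gene was 12.2% for Gabarapl2 and 5.77% for Map1lc3b. It was largest for Nrbf2 (65.8%), Atg4a (51.2%), Atg9a (30.2%) and Wdr45 (16.9%), each mostly shared with a pseudogene or an unnamed gene model, and the values of these 4 genes carry that uncertainty. Counts that were not whole numbers occurred for Map1lc3b in 12 libraries, Atg9a in 9, Gabarapl2 in 8, Rb1cc1 in 7, Atg4a in 6, Uvrag in 4, Nrbf2 and Wdr45 in 2 and Wdr45b in 1, and how such counts were assigned is not given in the sources used here.

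Between brain and liver, the genes of the core machinery sat on the liver side of the transcriptome. With TMM scaling, which sets library sizes from the bulk of genes, 20 of the 37 genes (54.1%) were higher in wild-type liver and 4 (10.8%) higher in wild-type brain at an adjusted p under 0.05 (edgeR quasi-likelihood test). Over all 18850 genes tested, 78.6% were called, 34.7% higher in liver and 43.9% in brain. In the knockout libraries, which share no sample with the wild-type ones, 25 of 37 (67.6%) were higher in liver and 5 (13.5%) in brain, against 35.2% and 43.5% of 18785 genes (78.7% in either direction). The same 24 genes called in wild type were called in the same direction in knockout, where 74.7% of all genes were called in both. The remaining 6 knockout calls were Atg13, Pik3c3, Pik3r4, Wdr45b, Atg4d and Map1lc3b, and 7 genes were called in neither: Rb1cc1, Becn1, Atg9a, Atg10, Atg12, Atg16l1 and Atg4b.

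How many of the 37 were called in each direction depended on the scaling. With library totals in place of TMM, 19 of the 37 genes were higher in brain and 10 higher in liver in both genotypes, and the brain-higher share of all wild-type calls moved from 55.8% to 74.4%. This scaling shifted the median log2 difference of all genes, brain over liver, by 0.84 in wild type and 0.88 in knockout. Under TMM the median of the 37 genes was 0.66 below that of all genes in wild type and 0.68 below it in knockout. A change of scaling adds nearly the same amount to every gene, so these distances to the median of all genes hold by construction under library totals too and do not bear on the choice of scaling. Liver calls that held under TMM, DESeq2 size factors and library totals in both genotypes numbered 10 (Ulk1, Atg101, Nrbf2, Atg2a, Atg3, Atg5, Atg7, Atg4a, Gabarap and Vmp1), and brain calls 3 (Atg4c, Map1lc3a and Gabarapl2). These are 27% and 8.11% of the 37 genes, where 19.6% and 41.2% of 18380 genes met the same rule. Fits without 1 library kept all 10 of these liver calls and those of Atg4c and Map1lc3a in both genotypes, but lost the wild-type call of Ambra1 in 6 of 6 fits, of Gabarapl2 in 5 and of Atg2b and Epg5 in 4. Knockout calls lost in at least 1 such fit were those of Atg13, Pik3c3, Pik3r4, Ambra1, Atg2b, Atg4d, Map1lc3b, Gabarapl1, Gabarapl2 and Epg5. Differences were small for tissue comparisons: the median absolute log2 difference of the 37 genes in wild type was 0.65, and that of all genes 1.55.

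**Figure D1:**
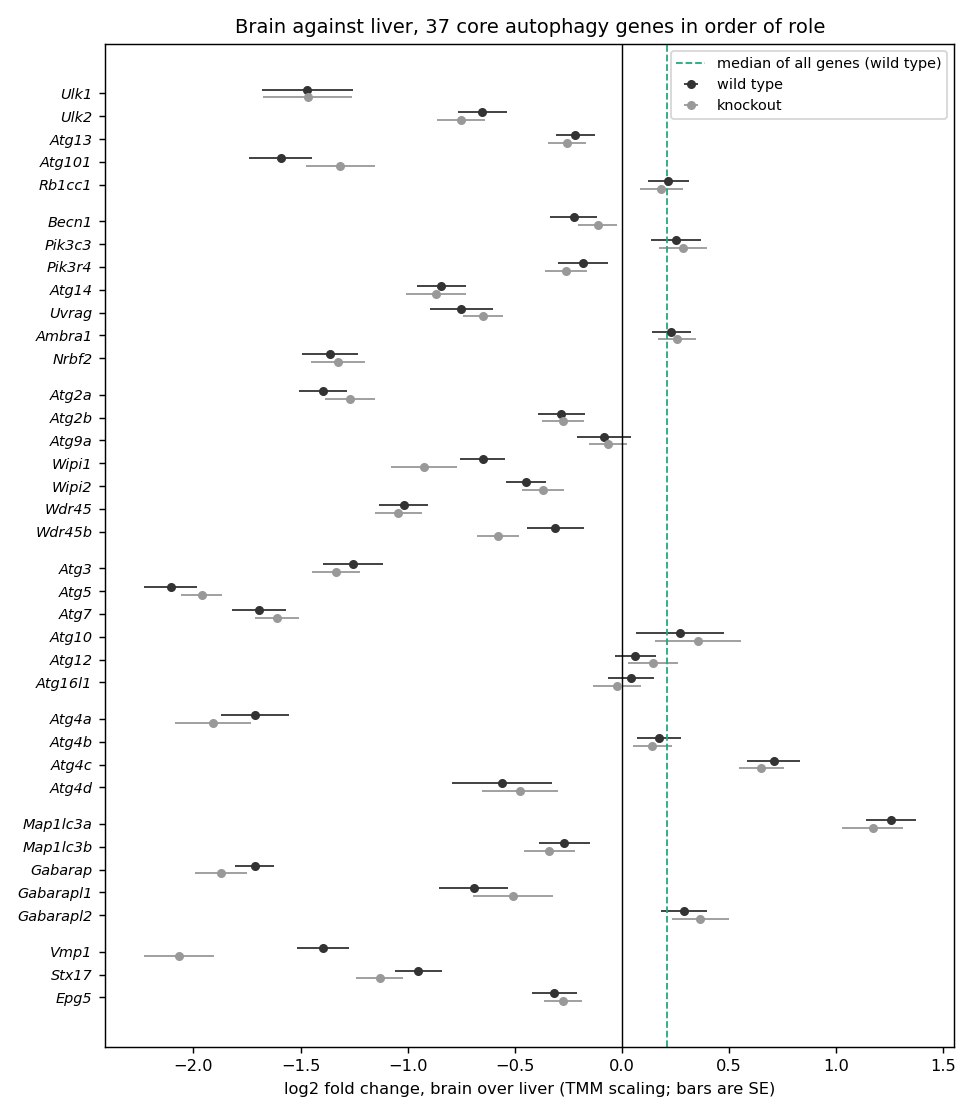
Log2 fold change of brain over liver with its standard error (x axis, TMM scaling) for the 37 genes in order of role (y axis), in wild type (dark) and knockout (grey). The dashed line is the median of all genes in wild type, 0.21. Most genes lie to its left, Map1lc3a lies farthest right at 1.25 in wild type, and Atg5 farthest left in wild type at -2.11.

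In each sentence below, single values are CPM, counts scaled to 1 common library size by TMM over all 12 libraries. Means carry an SD over 3 libraries. Differences are log2 brain over liver with their standard error from edgeR. A negative difference means higher in liver.

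In the ULK1 complex, which starts autophagy under the control of nutrient-sensing kinases, 3 of 5 genes were higher in liver in wild type under TMM and none higher in brain, where 34.7% and 43.9% of all genes were. With library totals 2 were higher in liver and 2 in brain, against 21.2% and 61.7% of all genes. Ulk1, the kinase itself, read 75.5, 68.2 and 70.0 CPM in the wild-type brains and 74.6, 70.3 and 74.5 in the knockout brains. Liver values of Ulk1 were 139, 199.5 and 255 CPM in wild type and 160.4, 169 and 271 in knockout. Every liver lay above every brain, although the livers spread widely, and the difference was -1.47 ± 0.21 in wild type (adjusted p = 0.000352) and -1.47 ± 0.21 in knockout (adjusted p = 0.000393). The related kinase Ulk2 read 78.8, 94.5 and 79.4 CPM in the wild-type brains and 82.7, 92.1 and 78.0 in the knockout brains. Liver values of Ulk2 were 128, 142 and 128 CPM in wild type and 154, 138 and 129.6 in knockout. Its livers also lay above all brains, with a smaller difference of -0.65 ± 0.11 in wild type (adjusted p = 0.00102) and -0.75 ± 0.11 in knockout (adjusted p = 0.000532), but this direction reversed with library totals (0.19 in wild type and 0.13 in knockout). Atg101, which stabilises ATG13 in the complex, read 7.13, 8.04 and 7.22 CPM in the wild-type brains and 6.72, 9.84 and 8.17 in the knockout brains. Liver values of Atg101 were 26.2, 21.3 and 20.3 CPM in wild type and 21.6, 19.0 and 20.4 in knockout. The groups did not overlap between tissues, with differences of -1.59 ± 0.15 in wild type (adjusted p = 2.79e-05) and -1.31 ± 0.16 in knockout (adjusted p = 0.000176). Atg13, the adaptor subunit, averaged 50.4 ± 0.786 CPM in wild-type and 49.8 ± 1.79 in knockout brain, and 58.9 ± 3.17 in wild-type and 58.8 ± 3.12 in knockout liver. Its difference was -0.22 ± 0.09 in wild type (adjusted p = 0.0589) and -0.26 ± 0.09 in knockout (adjusted p = 0.0315). With library totals Atg13 reversed and was called higher in brain in both genotypes (0.62 and 0.62). Rb1cc1, which encodes the scaffold FIP200, averaged 124 ± 5.70 CPM in wild-type and 121 ± 7.01 in knockout brain, and 107 ± 5.27 in wild-type and 106 ± 6.41 in knockout liver, and was called in neither genotype. The difference of Rb1cc1 was 0.22 ± 0.10 in wild type (adjusted p = 0.0688) and 0.18 ± 0.10 in knockout (adjusted p = 0.127). In wild type DESeq2's Wald test (adjusted p = 0.043) and the edgeR fit of all 12 libraries (adjusted p = 0.0415) called it higher in brain. With library totals Rb1cc1 was called higher in brain in both genotypes (1.055 and 1.061).

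**Figure D2:**
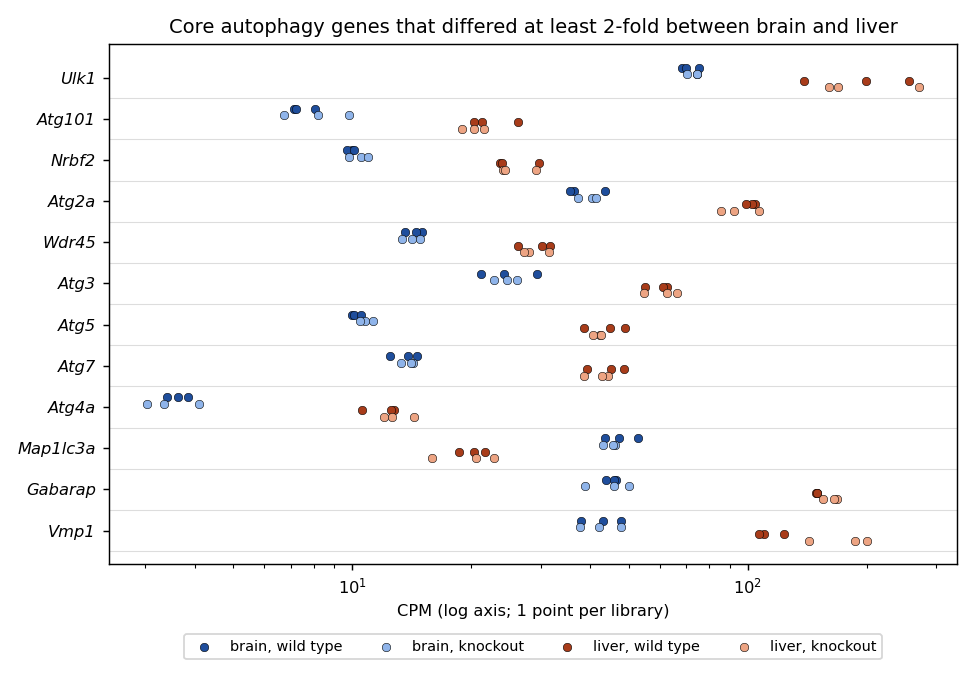
CPM in each library (x axis, log scale) of the 12 genes that under TMM differed by at least 1 on the log2 scale, in the same direction, in both genotypes. Each point is 1 library, with brains in blue and livers in red and knockouts in the paler shade. The 12 genes were chosen by their difference in these same libraries, so the lack of overlap between brain and liver points adds no support. Only Map1lc3a is higher in brain.

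The class III phosphatidylinositol 3-kinase complexes make the lipid that marks the nascent membrane, and their genes divided between small differences and liver-higher accessory subunits. Under TMM the shared catalytic core stayed within 0.3 on the log2 scale. Pik3c3, the kinase VPS34, averaged 30.2 ± 0.470 CPM in wild-type and 30.0 ± 2.00 in knockout brain, and 25.4 ± 3.06 in wild-type and 24.4 ± 2.21 in knockout liver. Its difference was 0.25 ± 0.12 in wild type (adjusted p = 0.0766) and 0.28 ± 0.11 in knockout (adjusted p = 0.0482). Pik3r4, the VPS15 subunit, averaged 34.6 ± 3.82 CPM in wild-type and 33.1 ± 2.36 in knockout brain, and 39.3 ± 2.11 in wild-type and 39.3 ± 2.30 in knockout liver, a difference of -0.18 ± 0.12 in wild type (adjusted p = 0.185) and -0.26 ± 0.10 in knockout (adjusted p = 0.0396). Becn1, the scaffold Beclin 1, averaged 47.2 ± 5.32 CPM in wild-type and 51.3 ± 2.72 in knockout brain, and 55.5 ± 1.03 in wild-type and 54.9 ± 2.42 in knockout liver, and was called in neither genotype. The difference of Becn1 was -0.23 ± 0.11 in wild type (adjusted p = 0.0923) and -0.11 ± 0.09 in knockout (adjusted p = 0.288). With library totals all 3 of these genes were called higher in brain in both genotypes, Pik3c3 at 1.09 in wild type and 1.16 in knockout, and Pik3r4 (0.66 and 0.62) and Becn1 (0.61 and 0.77) with their direction reversed. Atg14, the subunit that directs the kinase to the site of autophagosome formation, averaged 11.6 ± 0.767 CPM in wild-type and 11.7 ± 1.42 in knockout brain, and 21.0 ± 0.786 in wild-type and 21.2 ± 1.93 in knockout liver. It was higher in liver, with a difference of -0.84 ± 0.12 in wild type (adjusted p = 0.000271) and -0.87 ± 0.14 in knockout (adjusted p = 0.000754), a call lost with library totals. Uvrag, the alternative subunit that serves endosomes, averaged 31.6 ± 1.16 CPM in wild-type and 30.8 ± 1.79 in knockout brain, and 53.5 ± 9.97 in wild-type and 47.8 ± 2.28 in knockout liver, with a difference of -0.75 ± 0.15 in wild type (adjusted p = 0.00195) and -0.65 ± 0.09 in knockout (adjusted p = 0.000396) that reversed with library totals (0.09 and 0.23). Per kilobase of exon, Atg14 made up 43.9% of the Atg14 and Uvrag pair in brain and 46.7% in liver, a difference within the spread of libraries (exact permutation test, two-sided, 6 against 6 libraries, p = 0.145, adjusted p = 0.153).

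Nrbf2, a regulatory subunit of the ATG14-containing complex, showed the largest tissue difference of these 7 genes. It read 10.0, 9.73 and 10.1 CPM in the wild-type brains and 10.5, 10.9 and 9.83 in the knockout brains. Liver values of Nrbf2 were 23.6, 24.0 and 29.6 CPM in wild type and 24.1, 24.4 and 29.2 in knockout. No brain reached a liver, and the difference was -1.36 ± 0.13 in wild type (adjusted p = 3.67e-05) and -1.32 ± 0.13 in knockout (adjusted p = 4.31e-05). The sequence that Nrbf2 shares with other gene models, given above, applies here. Ambra1, a scaffold that links Beclin 1 to ubiquitin ligases and to the ULK1 complex, averaged 65.6 ± 3.60 CPM in wild-type and 67.4 ± 2.96 in knockout brain, and 56.2 ± 0.629 in wild-type and 55.8 ± 0.734 in knockout liver. It was higher in brain by 0.23 ± 0.09 in wild type (adjusted p = 0.0485) and 0.26 ± 0.09 in knockout (adjusted p = 0.0273), the smallest difference among the 24 calls shared by both genotypes. Its wild-type call was lost with DESeq2 size factors (adjusted p = 0.0533) and in each of the 6 fits without 1 library.

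Lipid supply and membrane recognition were led by Atg2a. ATG2 proteins carry lipid from the endoplasmic reticulum to the growing membrane, and their 2 genes were used in different proportions. Atg2a read 43.7, 36.4 and 35.5 CPM in the wild-type brains and 40.4, 37.3 and 41.4 in the knockout brains. Liver values of Atg2a were 104, 102 and 99.0 CPM in wild type and 107, 92.1 and 85.5 in knockout. Its livers stood clear of its brains, with a difference of -1.40 ± 0.11 in wild type (adjusted p = 1.37e-05) and -1.27 ± 0.12 in knockout (adjusted p = 3.18e-05). Atg2b read 83.6, 68.0 and 73.9 CPM in the wild-type brains and 78.1, 71.5 and 73.6 in the knockout brains. Liver values of Atg2b were 86.9, 96.0 and 92.4 CPM in wild type and 92.0, 81.8 and 93.6 in knockout. Here the tissues overlapped, and the difference of -0.28 ± 0.11 in wild type (adjusted p = 0.0466) and -0.27 ± 0.10 in knockout (adjusted p = 0.0353) reversed with library totals (0.56 and 0.60). Within the pair, per kilobase, Atg2a took 47.8% ± 1.27 of the reads in brain and 65.5% ± 2.20 in liver (SD, n = 6, exact permutation test, two-sided, p = 0.00216, the smallest it can give, adjusted p = 0.00374). The size of this share depends on the length used. With the mean length of coding transcripts Atg2a took 32.9% in brain and 50.4% in liver. Atg9a, the scramblase carried by ATG9 vesicles, averaged 82.1 ± 10.4 CPM in wild-type and 83.8 ± 1.30 in knockout brain, and 87.4 ± 7.94 in wild-type and 86.7 ± 4.91 in knockout liver, and was called in neither genotype. The difference of Atg9a was -0.08 ± 0.13 in wild type (adjusted p = 0.566) and -0.06 ± 0.09 in knockout (adjusted p = 0.529). With library totals Atg9a was called higher in brain in both genotypes (0.75 and 0.81).

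The 4 WIPI genes, whose propeller proteins bind phosphatidylinositol 3-phosphate, all had negative differences under TMM, on the liver side. Wdr45 (WIPI4), the partner of ATG2, read 13.6, 15.1 and 14.5 CPM in the wild-type brains and 13.4, 14.9 and 14.2 in the knockout brains. Liver values of Wdr45 were 26.3, 30.2 and 31.6 CPM in wild type and 28.0, 27.2 and 31.4 in knockout. The tissues did not overlap and the difference was -1.02 ± 0.12 in wild type (adjusted p = 9.59e-05) and -1.04 ± 0.11 in knockout (adjusted p = 7.44e-05), which shrank to -0.18 and -0.17 and was no longer called with library totals. Wipi1 read 14.8, 14.6 and 15.9 CPM in the wild-type brains and 14.9, 16.3 and 13.5 in the knockout brains. Liver values of Wipi1 were 24.1, 24.4 and 22.9 CPM in wild type and 26.7, 33.4 and 23.9 in knockout. No brain reached a liver, and the difference was -0.65 ± 0.11 in wild type (adjusted p = 0.000703) and -0.93 ± 0.15 in knockout (adjusted p = 0.000916). Wipi2, which recruits ATG16L1, read 73.1, 79.9 and 75.1 CPM in the wild-type brains and 82.6, 72.3 and 76.1 in the knockout brains. Liver values of Wipi2 were 102, 108 and 102 CPM in wild type and 94.9, 103 and 97.1 in knockout. Its tissues were separate too, and the difference was -0.45 ± 0.09 in wild type (adjusted p = 0.00258) and -0.37 ± 0.10 in knockout (adjusted p = 0.01). Wdr45b (WIPI3) read 27.6, 30.0 and 28.2 CPM in the wild-type brains and 26.7, 24.8 and 27.2 in the knockout brains. Liver values of Wdr45b were 42.1, 31.6 and 33.1 CPM in wild type and 40.3, 35.8 and 40.6 in knockout. All livers were above all brains, with a difference of -0.31 ± 0.13 in wild type (adjusted p = 0.0645) and -0.58 ± 0.10 in knockout (adjusted p = 0.000997). With library totals Wipi2 and Wdr45b reversed in both genotypes (0.39 and 0.51 for Wipi2, 0.53 and 0.30 for Wdr45b), and Wipi1 reversed in wild type (0.19) and shrank to -0.04 in knockout, where it was no longer called (adjusted p = 0.793, edgeR). Within the family, which no scaling between tissues can touch, Wdr45 made up 20.6% in brain and 27.1% in liver (adjusted p = 0.00374), and Wipi2 34.6% and 29.6% (adjusted p = 0.00374, exact permutation tests). Wipi1 took 16.2% and 18.1%, which did not pass (adjusted p = 0.113, exact permutation test). Wdr45b took 28.6% and 25.2% (adjusted p = 0.0264, exact permutation test), a call lost without wild-type brain 1, 2 or 3 or knockout brain 3 (adjusted p of 0.0521 to 0.0646). With plain counts in place of counts per kilobase, Wdr45b took 20.6% and 19.3% and did not pass (adjusted p = 0.24), while Wipi1 took 11.3% and 13.4% and did (adjusted p = 0.0192, exact permutation tests).

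Conjugation genes fell into 2 sets of 3. Atg3, Atg5 and Atg7 were higher in liver in both genotypes under TMM, DESeq2 size factors and library totals, as were 19.6% of all genes, and Atg10, Atg12 and Atg16l1 were not called in either genotype under TMM. Atg7, the E1-like enzyme that activates both ubiquitin-like systems, read 12.5, 14.6 and 13.8 CPM in the wild-type brains and 13.3, 14.2 and 14.1 in the knockout brains. Liver values of Atg7 were 48.6, 45.2 and 39.3 CPM in wild type and 44.3, 42.8 and 38.6 in knockout. Livers were above brains without exception, with a difference of -1.69 ± 0.13 in wild type (adjusted p = 8.45e-06) and -1.61 ± 0.10 in knockout (adjusted p = 4.32e-06). Atg3, the E2-like enzyme for LC3 and GABARAP, read 29.3, 21.2 and 24.2 CPM in the wild-type brains and 24.6, 22.8 and 26.1 in the knockout brains. Liver values of Atg3 were 62.7, 54.9 and 61.1 CPM in wild type and 62.4, 54.7 and 66.4 in knockout. The tissues were again apart, with a difference of -1.25 ± 0.14 in wild type (adjusted p = 8.8e-05) and -1.33 ± 0.11 in knockout (adjusted p = 2.05e-05). Atg5, which is joined to ATG12 to form part of the E3-like complex, read 9.96, 10.1 and 10.6 CPM in the wild-type brains and 10.8, 10.5 and 11.3 in the knockout brains. Liver values of Atg5 were 48.9, 44.9 and 38.6 CPM in wild type and 42.3, 42.5 and 40.7 in knockout. Its difference of -2.11 ± 0.13 in wild type (adjusted p = 2.39e-06) and -1.96 ± 0.10 in knockout (adjusted p = 1.16e-06) was the largest of the 37 genes in wild type.

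By contrast, Atg12, the partner to which ATG5 is joined, averaged 35.5 ± 2.05 CPM in wild-type and 37.5 ± 3.79 in knockout brain, and 34.2 ± 0.972 in wild-type and 33.6 ± 2.84 in knockout liver, with a difference of 0.06 ± 0.10 in wild type (adjusted p = 0.57) and 0.14 ± 0.12 in knockout (adjusted p = 0.282). Atg16l1, which completes the complex and binds WIPI2, averaged 41.4 ± 2.97 CPM in wild-type and 40.3 ± 1.04 in knockout brain, and 40.4 ± 3.12 in wild-type and 40.6 ± 5.02 in knockout liver. Its difference was 0.04 ± 0.11 in wild type (adjusted p = 0.743) and -0.02 ± 0.11 in knockout (adjusted p = 0.861), and its sign changed between genotypes and with the removal of single libraries. Atg10, the E2-like enzyme for ATG12, had the lowest CPM of the 37 genes in liver and averaged 4.25 ± 0.427 CPM in wild-type and 4.18 ± 0.313 in knockout brain, and 3.53 ± 0.470 in wild-type and 3.23 ± 0.462 in knockout liver, a difference of 0.27 ± 0.20 in wild type (adjusted p = 0.254) and 0.36 ± 0.20 in knockout (adjusted p = 0.142). With library totals all 3 were higher in brain in both genotypes. The products of Atg5 and Atg12 form 1 conjugate, and per kilobase of exon Atg5 stood at 14.2 ± 1.00 TPM (counts per kilobase, scaled to the same sum in each library) and Atg12 at 15.1 ± 1.43 TPM in wild-type brain, within their spread, and at 22.8 ± 2.59 and 5.40 ± 0.211 TPM in wild-type liver. The levels in liver were farther apart than their SDs. With the mean length of coding transcripts the order was the same and the gap in brain larger, with Atg5 at 16.5 and Atg12 at 28.2 TPM in wild-type brain and at 27.1 and 10.4 TPM in wild-type liver.

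The 4 ATG4 proteases, which cut LC3 and GABARAP precursors and release the lipid-bound forms, were used in different proportions by brain and liver. Atg4a read 3.63, 3.41 and 3.85 CPM in the wild-type brains and 4.10, 3.35 and 3.03 in the knockout brains. Liver values of Atg4a were 12.7, 12.6 and 10.6 CPM in wild type and 12.6, 14.4 and 12.1 in knockout. Livers exceeded all brains, and the difference was -1.71 ± 0.16 in wild type (adjusted p = 2.8e-05) and -1.91 ± 0.18 in knockout (adjusted p = 3.59e-05). The pseudogene Atg4a-ps shares 51.2% of its 50-base stretches, as given above. Atg4c read 29.0, 37.3 and 34.1 CPM in the wild-type brains and 29.8, 35.5 and 30.8 in the knockout brains. Liver values of Atg4c were 19.6, 20.2 and 21.9 CPM in wild type and 19.6, 20.5 and 20.5 in knockout. It went the other way, with all brains above all livers, by 0.71 ± 0.12 in wild type (adjusted p = 0.0011) and 0.65 ± 0.11 in knockout (adjusted p = 0.000794). Atg4b, the most active protease toward LC3, read 35.5, 31.4 and 33.5 CPM in the wild-type brains and 30.9, 33.5 and 33.6 in the knockout brains. Liver values of Atg4b were 31.6, 29.4 and 28.3 CPM in wild type and 29.1, 30.5 and 28.2 in knockout. The tissues overlapped and neither genotype passed, with differences of 0.17 ± 0.10 in wild type (adjusted p = 0.158) and 0.14 ± 0.09 in knockout (adjusted p = 0.187). With library totals Atg4b was called higher in brain in both genotypes (1.015 and 1.022). Atg4d read 21.9, 11.4 and 17.1 CPM in the wild-type brains and 19.5, 12.3 and 15.9 in the knockout brains. Liver values of Atg4d were 25.1, 27.7 and 21.6 CPM in wild type and 21.4, 23.2 and 21.2 in knockout. Its brain libraries were the most variable of all 37 genes, with a coefficient of variation of 31.2% in wild type, and its difference was -0.56 ± 0.23 in wild type (adjusted p = 0.0585) and -0.47 ± 0.18 in knockout (adjusted p = 0.0389). DESeq2's Wald test (adjusted p = 0.0308) and edgeR with DESeq2 size factors (adjusted p = 0.0413) called it higher in wild-type liver. The edgeR fit of all 12 libraries did so too (adjusted p = 0.0347), but lost the knockout call (adjusted p = 0.0754). With library totals Atg4d reversed and was not called (0.29 and 0.41). The annotated exons of Atg4d overlap those of the opposite-strand gene Kri1 over 1405 bases, and whether strand was used in counting is not given in the sources used here. The same limit holds for Becn1 (3104 bases with Cntd1), Uvrag (1589 with Gm45187) and Gabarapl1 (570 with 1700101I11Rik). Shorter overlaps, of 46 to 558 bases, occur for Rb1cc1, Atg2b, Atg14, Map1lc3b and Atg9a.

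Within the ATG4 family, Atg4c took 56.3% ± 4.66 of the reads per kilobase in brain and 34.7% ± 2.27 in liver (SD, n = 6), and Atg4a 7.72% ± 0.832 and 26.7% ± 1.93. Atg4b took 23.0% and 20.3%, and Atg4d 13.0% and 18.3%. All 4 shares differed between tissues (exact permutation tests, two-sided, adjusted p = 0.00374 for Atg4c and Atg4a, 0.00685 for Atg4b and 0.0127 for Atg4d), and the shares of the 6 brains and 6 livers did not overlap for Atg4c or Atg4a. The size of a share depends on the length used: with the mean length of coding transcripts Atg4b was the largest in both tissues, at 55.9% in brain and 51.4% in liver. Atg4c then took 31.6% and 20.3%, and Atg4a 4.66% and 16.8%, both with smaller gaps between tissues, and the direction of all 4 differences stayed the same.

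LC3 and GABARAP genes took opposite directions. Map1lc3a (LC3A) read 43.6, 52.9 and 47.4 CPM in the wild-type brains and 43.0, 46.1 and 45.7 in the knockout brains. Liver values of Map1lc3a were 21.6, 18.6 and 20.3 CPM in wild type and 22.8, 20.6 and 15.9 in knockout. Under TMM it was the single gene of the 37 that was called and at least 1 log2 unit higher in brain in both genotypes, by 1.25 ± 0.12 in wild type (adjusted p = 3.11e-05) and 1.17 ± 0.14 in knockout (adjusted p = 0.000158). Among all genes, 34.2% met that rule toward brain and 24.1% toward liver under TMM, and among these 37 genes 1 and 11 did. With library totals the same rule gave 48.4% and 15% of all genes, and 8 and 1 of the 37. Those 8 were Rb1cc1, Pik3c3, Ambra1, Atg10, Atg4b, Atg4c, Map1lc3a and Gabarapl2, and the 1 toward liver was Atg5. Map1lc3b (LC3B), the usual marker of autophagosomes, read 72.7, 74.6 and 76.9 CPM in the wild-type brains and 73.1, 76.7 and 68.9 in the knockout brains. Liver values of Map1lc3b were 77.0, 94.7 and 99.4 CPM in wild type and 82.4, 87.4 and 104 in knockout. All livers were above all brains by a narrow margin, with a difference of -0.27 ± 0.12 in wild type (adjusted p = 0.0696) and -0.34 ± 0.12 in knockout (adjusted p = 0.0306) that reversed with library totals (0.57 and 0.54).

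Gabarap read 43.9, 46.3 and 45.9 CPM in the wild-type brains and 38.9, 45.8 and 50.1 in the knockout brains. Liver values of Gabarap were 149.8, 149 and 149.9 CPM in wild type and 168, 165 and 155 in knockout. Every liver was above every brain, and the difference was -1.71 ± 0.09 in wild type (adjusted p = 1.25e-06) and -1.87 ± 0.12 in knockout (adjusted p = 4.96e-06). Gabarapl1 read 175, 259 and 226 CPM in the wild-type brains and 193, 258 and 219 in the knockout brains. Liver values of Gabarapl1 were 340.0, 393 and 339 CPM in wild type and 359, 239.5 and 346 in knockout. A knockout liver overlapped the highest brains. The difference of -0.69 ± 0.16 in wild type (adjusted p = 0.00473) and -0.51 ± 0.19 in knockout (adjusted p = 0.0378) reversed with library totals (0.15 and 0.36). Gabarapl2 (GATE-16) read 55.8, 46.2 and 54.0 CPM in the wild-type brains and 58.9, 47.4 and 45.6 in the knockout brains. Liver values of Gabarapl2 were 44.0, 42.1 and 42.0 CPM in wild type and 42.3, 39.5 and 35.0 in knockout. All brains lay above all livers, and the difference was 0.29 ± 0.11 in wild type (adjusted p = 0.0365) and 0.37 ± 0.13 in knockout (adjusted p = 0.0365), which remained toward brain under each scaling.

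Shares of the family's reads per kilobase set these 5 genes against each other within each library. Gabarapl1 was the largest in both tissues, at 53.3% ± 3.50 in brain and 55.7% ± 4.68 in liver, and did not differ beyond the spread (exact permutation test, two-sided, p = 0.329, adjusted p = 0.329). Map1lc3a took 19.1% ± 0.931 in brain and 5.70% ± 0.865 in liver, and Gabarap 11.9% ± 1.04 and 28.6% ± 3.45 (SD, n = 6). Gabarapl2 took 10.9% ± 2.06 and 5.91% ± 0.583. These 3 shares did not overlap between tissues (exact permutation tests, adjusted p = 0.00374 each). Map1lc3b took 4.79% and 4.07% (adjusted p = 0.0439, exact permutation test), a difference that lost its call in 8 of the 12 fits that leave out 1 library. These sizes depend on the length used. With the mean length of coding transcripts Map1lc3a took 10.6% in brain and 3.02% in liver, and Map1lc3b 11.3% and 9.07% (adjusted p = 0.00588, exact permutation test), so that Map1lc3b was the larger of both in each tissue. Over 6 families of 2 or more genes, 19 shares were compared, of which 9 were larger in brain and 6 larger in liver at an adjusted p under 0.05. In a family of 2 genes the shares mirror each other. These tests treat the 12 libraries as independent. Yet same-numbered wild-type and knockout livers deviated together over all genes (correlations of 0.30, 0.33 and 0.38). So did the brains numbered 1 and 2 (0.66 and 0.63), but not those numbered 3 (-0.02). The p-values of the share tests may thus be too small. Within 1 genotype no share can reach a p below 0.1. There, the brains and livers did not overlap for 14 of 19 shares in wild type and 13 in knockout, of which 12 were the same shares in the same direction.

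**Figure D3:**
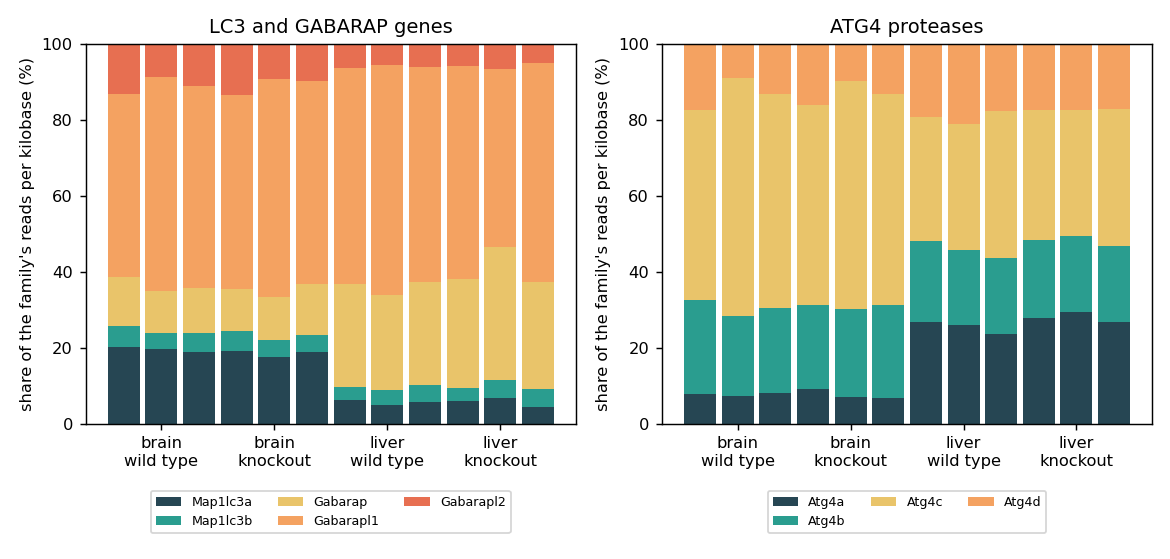
Share of a family's reads per kilobase of exon (y axis, percent) in each of the 12 libraries (bars, 3 per group) for the LC3 and GABARAP genes (left) and the ATG4 proteases (right). Map1lc3a averages 19.1% in brain and 5.70% in liver and Gabarap 11.9% and 28.6%, while Atg4c averages 56.3% in brain and 34.7% in liver and Atg4a 7.72% and 26.7%.

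Membrane, fusion and tethering genes were all 3 higher in liver under TMM in both genotypes, where 34.7% of all genes were in wild type and 35.2% in knockout. With library totals 1 was higher in liver, 1 higher in brain and 1 not called in each genotype. Vmp1, an endoplasmic reticulum scramblase needed for autophagosome formation, read 38.0, 43.2 and 47.7 CPM in the wild-type brains and 42.2, 47.9 and 37.7 in the knockout brains. Liver values of Vmp1 were 110.1, 124 and 107 CPM in wild type and 201, 187 and 143 in knockout. Livers stood above all brains, with a difference of -1.40 ± 0.12 in wild type (adjusted p = 2.12e-05) and -2.07 ± 0.16 in knockout (adjusted p = 1.43e-05). The Vmp1 exons contain the 92 bases of Mir21a on the same strand, which was listed at 0 counts in every library. Stx17, the SNARE of the closed autophagosome, averaged 20.1 ± 1.77 CPM in wild-type and 18.8 ± 1.59 in knockout brain, and 38.9 ± 2.22 in wild-type and 40.7 ± 2.82 in knockout liver. Its difference was -0.95 ± 0.11 in wild type (adjusted p = 0.000113) and -1.13 ± 0.11 in knockout (adjusted p = 4.66e-05), and the call was lost with library totals (-0.11 and -0.25). Epg5, the tether that joins autophagosomes to late endosomes and lysosomes, averaged 63.1 ± 4.67 CPM in wild-type and 59.4 ± 2.45 in knockout brain, and 78.7 ± 5.92 in wild-type and 71.2 ± 3.70 in knockout liver, a difference of -0.31 ± 0.11 in wild type (adjusted p = 0.027) and -0.27 ± 0.09 in knockout (adjusted p = 0.0249) that reversed with library totals (0.52 and 0.60).

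Levels of different genes can be compared only per length. The TPM levels below are scaled to the sum of each library and not by TMM, so they are not read between tissues. Under TMM Gabarapl1 was higher in liver, with means of 220 CPM in wild-type brain and 357 CPM in wild-type liver. Per kilobase of exon, Gabarapl1 was the highest of the 37 genes in both tissues, at 361 ± 82.5 TPM in wild-type brain and 216 ± 14.6 TPM in wild-type liver. With these lengths, it was followed in wild-type brain by Map1lc3a (133 ± 18.0), Gabarap (80.7 ± 5.92) and Gabarapl2 (73.2 ± 5.86), of which the last 2 did not differ beyond their spread. In wild-type liver Gabarap followed at 98.7 ± 2.29 TPM, then Ulk1 (37.2 ± 11.3) and Vmp1 (35.7 ± 2.08), which did not differ beyond their spread, while Map1lc3a was at 20.8 ± 1.84 TPM. The order below Gabarapl1 depends on the lengths. With the mean length of coding transcripts, Rb1cc1 (175 ± 10.9 TPM), Map1lc3b (169 ± 6.30), Gabarap (164 ± 2.97) and Map1lc3a (163 ± 10.3) followed in wild-type brain, and did not differ beyond their spread. In wild-type liver Gabarap (206 ± 10.5 TPM) was followed by Vmp1 (105 ± 3.95), Map1lc3b (78.2 ± 11.9) and Ulk1 (65.6 ± 21.5). At the other end were Atg4a in wild-type brain (4.47 ± 0.348 TPM) and Atg10 in wild-type liver (2.51 ± 0.359 TPM). All 37 genes were at 1 TPM or more on average in each group.

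Among pathway genes outside the 37, upstream regulators in wild type were higher in brain in 4 of 22 cases, higher in liver in 10 and not called in 8. With library totals these counts were 14, 7 and 1. Over all genes, 43.9% were higher in brain and 34.7% in liver under TMM, and 61.7% and 21.2% with library totals, and the pathway lists here and below stand beside these shares. Prkab2, an AMPK beta subunit, was higher in brain by 2.52 ± 0.28 in wild type (adjusted p = 7.64e-05) and 2.60 ± 0.14 in knockout (adjusted p = 1.7e-06), and Mlst8, a subunit of both mTOR complexes, by 1.04 ± 0.12 in wild type (adjusted p = 0.000109) and 1.04 ± 0.12 in knockout (adjusted p = 0.000143). Deptor, which binds and restrains mTOR, was higher in liver, with a difference of -4.03 ± 0.18 in wild type (adjusted p = 5.46e-07) and -3.96 ± 0.20 in knockout (adjusted p = 1.32e-06). Foxo1, a transcription factor restrained by insulin signalling, was also higher in liver, at -1.82 ± 0.16 in wild type (adjusted p = 1.84e-05) and -1.74 ± 0.18 in knockout (adjusted p = 6.48e-05).

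Fusion partners were 6 higher in brain, 6 higher in liver and 2 not called of 14 (10, 3 and 1 with library totals). Tecpr1, which binds the ATG12-ATG5 conjugate, differed by 2.02 ± 0.14 in wild type (adjusted p = 6.58e-06) and 2.09 ± 0.15 in knockout (adjusted p = 9.91e-06), and Tecpr2 by 1.62 ± 0.15 in wild type (adjusted p = 3.5e-05) and 1.65 ± 0.15 in knockout (adjusted p = 2.95e-05). On the liver side, Vamp8, the lysosomal SNARE that pairs with syntaxin 17, differed by -4.32 ± 0.28 in wild type (adjusted p = 4.03e-06) and -4.37 ± 0.25 in knockout (adjusted p = 3.01e-06). Bloc1s1, a subunit of lysosome-positioning complexes, differed by -1.48 ± 0.18 in wild type (adjusted p = 0.000155) and -1.43 ± 0.20 in knockout (adjusted p = 0.000363). Of 14 paralogs and accessory factors tested, 3 were higher in brain, 4 higher in liver and 7 not called (10, 3 and 1 with library totals). Ulk4, a relative of ULK1 with a degenerate kinase domain, had 132 to 248 counts in the brains and 5 to 9 in the livers, a difference of 4.44 ± 0.30 in wild type (adjusted p = 4.84e-06) and 4.53 ± 0.34 in knockout (adjusted p = 1.13e-05). Atg9b, the paralog of Atg9a, had 16 to 59 counts in the brains and 1 to 4 in the livers, too few for a fold change. Retreg1, a receptor for autophagy of the endoplasmic reticulum, differed by -1.75 ± 0.13 in wild type (adjusted p = 1e-05) and -1.78 ± 0.29 in knockout (adjusted p = 0.000842), and Zfyve1, which marks the membrane site where autophagosomes form, by -1.32 ± 0.11 in wild type (adjusted p = 1.69e-05) and -1.35 ± 0.11 in knockout (adjusted p = 1.43e-05). The direction of each of these named pathway genes was the same with library totals.

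Promoters of 29 of the 37 genes were in the RefSeq table used (GRCm38.p6, 250 bases before to 50 after each start). The palindrome CACGTG, bound by TFEB and many other basic helix-loop-helix factors, is the same on both strands and occurred in 5 of the 29 (17.2%) and in 8.09% of 27025 genes. The longer TCACGTGA, which contains CACGTG and is the core of the element of the lysosomal gene network, occurred in 2 (6.90%), Atg3 and Nrbf2, and in 1.12% of genes. The 5 genes with CACGTG were Atg3, Atg5, Atg7, Atg14 and Nrbf2. For Atg7 and Atg14 the RefSeq start used lies 27999 and 2215 bases inside the gene as GENCODE M21 annotates it, so these windows are not at the outermost start, and they are not shown. For the other 3 the start lies within 50 bases of the outermost one, and the stretches before it are shown with the motif in capitals, 5′ to 3′ on the strand of the gene.
Atg3, chr16:45158715-45158783, plus strand: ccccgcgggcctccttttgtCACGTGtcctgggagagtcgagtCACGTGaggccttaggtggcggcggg
Atg5, chr10:44268305-44268338, plus strand: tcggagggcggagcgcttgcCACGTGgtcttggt
Nrbf2, chr10:67285464-67285509, minus strand: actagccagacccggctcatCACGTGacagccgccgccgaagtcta
A match describes letters in the window and not binding, which was not measured.

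Between Vaultrc5-/- and Vaultrc5+/+ tissues, no change in the 37 genes was called by the main test. In brain 0 of 37 were called by the edgeR quasi-likelihood test, as were 0 of 18075 genes (0%), and 0 of 37 had an unadjusted p under 0.05, against 0.675% of all genes. In liver 0 of 37 were called, as were 0 of 15329 genes (0%), and 1 of 37 had an unadjusted p under 0.05, against 3.5% of all genes. DESeq2's Wald test called 0 genes in brain and 10 in liver over all genes, of which 1 (Vmp1) is among the 37. A replicate block, which pairs same-numbered samples, called 0 genes in brain and 2 in liver over all genes, and 0 of the 37. The 95% interval of the log2 difference, knockout over wild type, lay within ±1 for all 37 genes in both tissues, as it did for 76.8% of all genes in brain and 77.7% in liver, and within ±0.5 for 34 genes in brain and 32 in liver. The widest bounds were those of Atg4d in brain (-0.72 to 0.55), and in liver the low bound of Ulk1 (-0.69) and the high bound of Vmp1 (0.95).

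**Figure D4:**
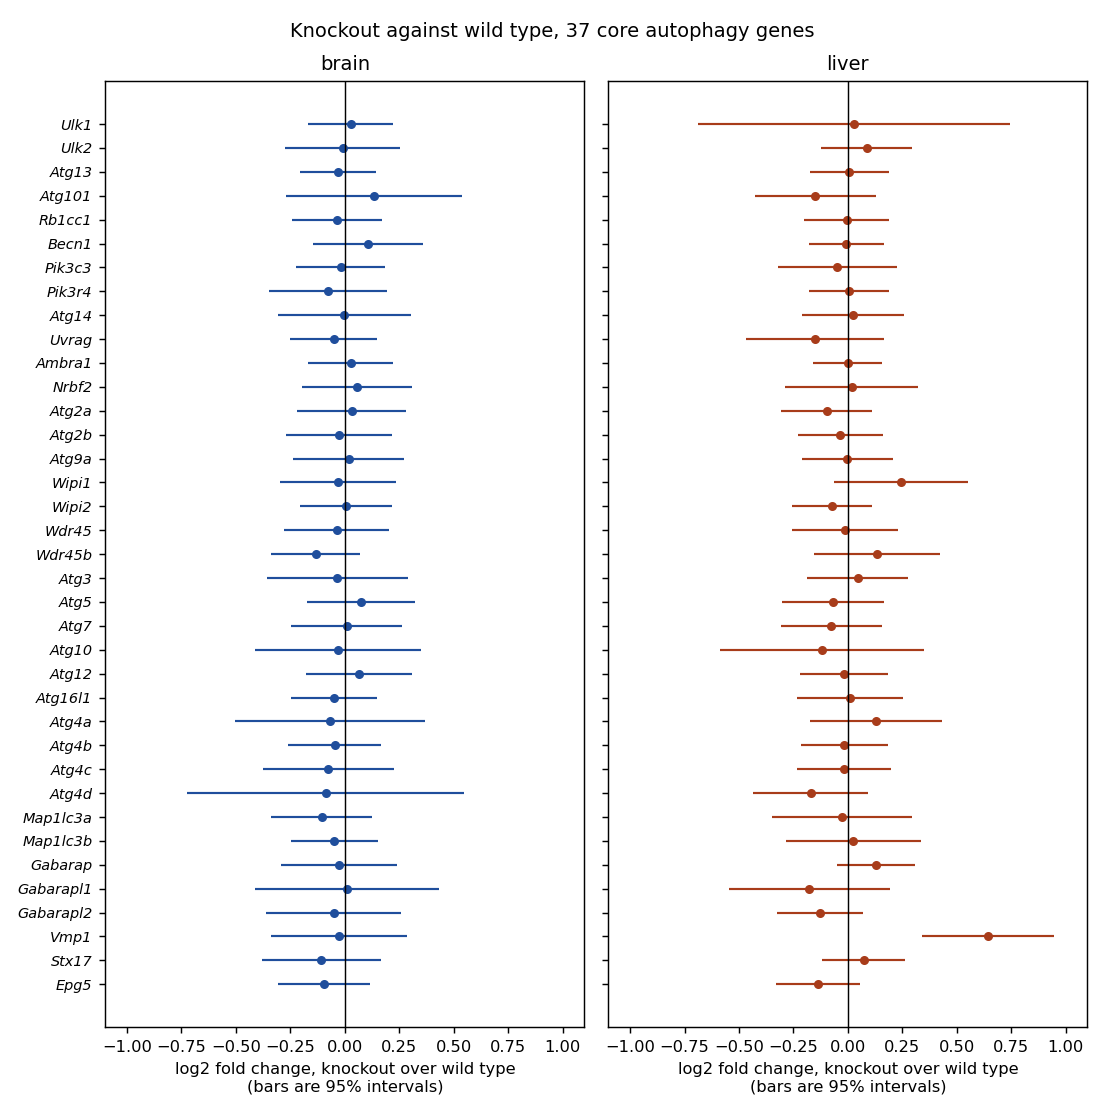
Log2 fold change of knockout over wild type with its 95% interval (x axis) for the 37 genes (y axis) in brain (left) and liver (right). All intervals in brain include 0, and in liver that of Vmp1, 0.34 to 0.95, is the only one that does not.

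Vmp1 stood out in liver. Its liver values, printed above, averaged 113 ± 8.88 CPM across the wild-type and 177 ± 30.1 CPM across the knockout libraries. All 3 knockout livers were above all 3 wild-type livers. The log2 difference was 0.65 ± 0.13 (edgeR, unadjusted p = 0.00128, adjusted p = 0.992). By DESeq2's Wald test the difference was 0.65 with an adjusted p of 0.0381. Over all alternatives the adjusted p ran from 0.0381 to 1.00, with 0.268 under the replicate block, and the difference over the fits that leave out 1 liver library was 0.56 to 0.77. In brain Vmp1 did not separate by genotype (means of 43.0 ± 4.90 and 42.6 ± 5.16 CPM, a difference of -0.03 ± 0.13). The difference between the tissues' genotype effects was 0.65 ± 0.20 (edgeR, unadjusted p = 0.00813). In that test 0 of the 37 genes passed adjustment, as did 0 of 20141 genes (0%), and 1 of the 37 had an unadjusted p under 0.05, against 2.43% of all genes. Since Vmp1 was chosen for description by its p-value, these numbers are a description.

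Cell type markers were read in the same libraries. Summed macrophage markers were 121 to 164 CPM in the wild-type and 141 to 275 CPM in the knockout livers, with 6 of 6 markers on the higher side in knockout (median log2 difference 0.51, 2 with an unadjusted p under 0.05 by edgeR), 1 of 6 higher in every knockout liver and none at 0 in all livers. Red cell markers summed to 107 to 150 CPM and 134 to 161 CPM, with 4 of 4 on the higher side (median 0.75, 2 with an unadjusted p under 0.05 by edgeR) and 2 of 4 higher in every knockout liver. Most of that sum was Alas2, a heme synthesis gene, which averaged 103 ± 18.1 CPM over the wild-type and 112 ± 10.4 CPM over the knockout livers. The globin gene Hbb-bs was at 12.5 ± 5.16 and 24.3 ± 6.36 CPM, Hba-a1 at 8.75 ± 3.52 and 12.6 ± 2.10 CPM and Hba-a2 at 0.314 ± 0.277 and 1.78 ± 0.391 CPM, and every knockout liver was above every wild-type liver for Hbb-bs and Hba-a2. Endothelial markers summed to 202 to 253 CPM and 242 to 260 CPM, again with 4 of 4 on the higher side (median 0.17, 1 with an unadjusted p under 0.05 by edgeR) and 1 of 4 higher in every knockout liver. Hepatocyte markers went the other way, with 1 of 6 on the higher side (median -0.13, 0 with an unadjusted p under 0.05 by edgeR). They summed to 73440 to 92410 CPM in the wild-type and 62070 to 94060 CPM in the knockout livers. Knockout liver 2 stood apart in the macrophage markers, which summed to 275 CPM in it and to 165 and 141 CPM in the other knockout livers. Without it 5 of 6 macrophage markers were on the higher side (median 0.20, none with an unadjusted p under 0.05 by edgeR), and the difference of Vmp1 was 0.59 (edgeR, unadjusted p = 0.00377, adjusted p = 0.999). The part of these markers in the Vmp1 values was not tested. In brain, summed endothelial markers were 27.4 to 33.5 CPM in wild type and 34.4 to 37.6 CPM in knockout, with 2 of 4 on the higher side, 1 with an unadjusted p under 0.05 (edgeR), and 1 of 4 higher in every knockout brain. Oligodendrocyte markers summed to 1444 to 4983 CPM in wild-type and 1614 to 2687 CPM in knockout brain, and all 4 were on the lower side in knockout (log2 differences of -0.62 to -0.43, none with an unadjusted p under 0.05 by edgeR). Wild-type brain 3 stood apart, with Mbp, a myelin gene, at 2511 CPM against 1228 and 734 CPM in the other wild-type brains. The part of these markers in the brain values was not tested. Without wild-type brain 3 all 4 oligodendrocyte markers were on the higher side in knockout (0.01 to 0.21). Ttr, of the hepatocyte list, ran from 0.205 to 304 CPM over the wild-type and 1.94 to 438 CPM over the knockout brains.

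The other genes with the smallest unadjusted p in liver were Wipi1 and Gabarap. Wipi1 read 24.1, 24.4 and 22.9 CPM in the wild-type and 26.7, 33.4 and 23.9 CPM in the knockout livers, which overlapped, a difference of 0.24 ± 0.13 (edgeR, unadjusted p = 0.104). Without knockout liver 2, the highest of the 6, the difference of Wipi1 was 0.09. Gabarap read 149.8, 149 and 149.9 CPM and 168, 165 and 155 CPM, with every knockout liver higher, a difference of 0.13 ± 0.08 (edgeR, unadjusted p = 0.134). Vmp1 and Gabarap were thus 2 of 37 genes with every knockout liver above every wild-type liver and none was below, against 4.16% and 5.45% of all genes.

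In brain the smallest unadjusted p belonged to Wdr45b, Epg5 and Map1lc3a. Wdr45b read 27.6, 30.0 and 28.2 CPM in the wild-type and 26.7, 24.8 and 27.2 CPM in the knockout brains, with every knockout brain lower, a difference of -0.13 ± 0.09 (edgeR, unadjusted p = 0.163). Epg5 read 58.9, 68.1 and 62.2 CPM and 59.2, 62.0 and 57.1 CPM, with overlap, a difference of -0.10 ± 0.09 (edgeR, unadjusted p = 0.312). Map1lc3a read 43.6, 52.9 and 47.4 CPM and 43.0, 46.1 and 45.7 CPM, also with overlap, a difference of -0.11 ± 0.10 (edgeR, unadjusted p = 0.313). Without wild-type brain 3 the differences of Wdr45b, Epg5 and Map1lc3a were -0.14, -0.10 and -0.11. Other single libraries moved them more. Without wild-type brain 2 they were -0.10, -0.04 and -0.03, and without wild-type brain 1 they were -0.16, -0.15 and -0.17. The difference of Wdr45b was -0.08 without knockout brain 2. Wdr45b was the only 1 of the 37 genes whose brain groups did not overlap, against 2.14% of genes lower and 2.09% higher in all knockout brains.

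**Figure D5:**
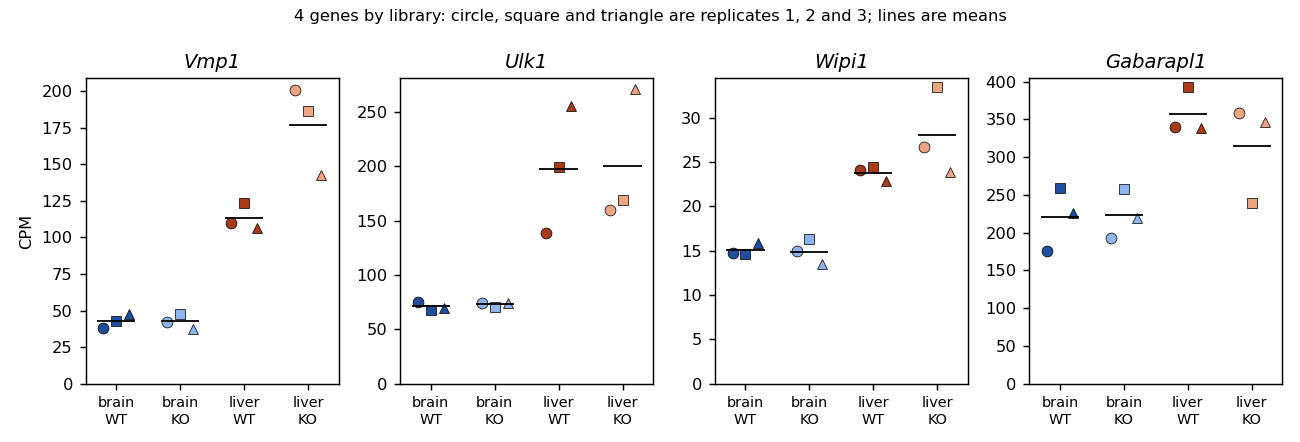
CPM (y axis, linear from 0) of Vmp1, Ulk1, Wipi1 and Gabarapl1 in the 12 libraries, with circles, squares and triangles for replicates 1, 2 and 3 and lines for group means. The knockout livers lie above the wild-type livers for Vmp1 and overlap them for the other 3 genes.

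Spread between libraries of 1 group set what these comparisons could resolve. The median coefficient of variation of the 37 genes was 6.73% in wild-type brain, 5.81% in knockout brain, 7.40% in wild-type liver and 7.21% in knockout liver, where all genes of at least 5 CPM had 12.1%, 9.95%, 8.64% and 10.5%. Ulk1 varied most in liver, at 29.4% in wild type and 30.7% in knockout. Of the 19 family shares, none could pass between genotypes, because an exact permutation of 3 against 3 libraries gives no p below 0.1. No gene of the pathway lists was called between genotypes either (0 of 22 upstream regulators, 0 of 14 fusion partners and 0 of the paralogs and accessory factors tested, 14 in brain and 12 in liver).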

How the data were processed

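Total RNA (Illumina Stranded Total RNA Prep with Ribo-Zero Plus, single-end reads, per the labels' protocols) from 12 tissue samples was processed by the submitters with cutadapt and STAR on mm10, per the submitters' processing notes. The counting program, its strand setting and its treatment of reads that match several genes are not given in the sources used here. The values deposited by the authors are expected counts per gene, of which 5.06% to 5.71% per library were not whole numbers. They were rounded before testing. All 55450 identifiers and symbols matched GENCODE M21.

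Each comparison was fitted on its own libraries with edgeR 4.0.16 in R 4.3.3 (filterByExpr with a minimum count of 10 and minimum total of 15, TMM, robust quasi-likelihood F-test) and adjusted by Benjamini-Hochberg over all genes tested, with a threshold of 0.05. The interaction used all 12 libraries. DESeq2 1.42.0 (Wald test and size factors), library totals, other filters, 1 fit of all libraries, a replicate block and leaving out each library were alternatives. CPM values used TMM scaling over all 12 libraries. TPM-like levels and family shares used the union of exons of each gene. Shares were compared by exact permutation, adjusted over 19 shares, and levels were not tested. The fits were tested on simulated counts with known changes.

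Named genes followed a rule. Each library is given for genes called in both genotypes with a difference of at least 1 on the log2 scale, and for their family members. Between genotypes, called genes are given, or otherwise the 3 with the smallest unadjusted p. From each pathway list come the 2 called genes with the largest difference each way. The members and lists were chosen with earlier results of these data known. Replicates of a group differed by far more than counting noise (chi-square per degree of freedom 27.2 to 228 over 12 pairs). Same-numbered wild-type and knockout livers deviated together (correlations 0.30, 0.33 and 0.38 over 16642 genes, over 0.1 in every pair), while brains did not in every pair (0.66, 0.63 and -0.02) and brains and livers did not (0.01 to 0.04).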

Additional observations from a re-analysis of the deposited data

How the results depend on the processing

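Library totals in place of TMM moved the counts of genes called higher in brain from 4 to 19 in wild type and from 5 to 19 in knockout, and those higher in liver from 20 to 10 and from 25 to 10. Genes with a negative log2 difference fell from 27 to 13 in wild type and from 28 to 13 in knockout. The signs that reversed with library totals in wild type were those of Ulk2 (0.19), Atg13 (0.62), Becn1 (0.61), Pik3r4 (0.66), Uvrag (0.0872), Atg2b (0.56), Atg9a (0.75), Wipi1 (0.19), Wipi2 (0.39), Wdr45b (0.53), Atg4d (0.29), Map1lc3b (0.57), Gabarapl1 (0.15) and Epg5 (0.52). In knockout they were those of Ulk2 (0.13), Atg13 (0.62), Becn1 (0.77), Pik3r4 (0.62), Atg14 (0.0073), Uvrag (0.23), Atg2b (0.60), Atg9a (0.81), Wipi2 (0.51), Wdr45b (0.30), Atg16l1 (0.85), Atg4d (0.41), Map1lc3b (0.54), Gabarapl1 (0.36) and Epg5 (0.60). These shifts follow from the scaling itself, which adds nearly the same amount to every gene. Without the low-count filter Atg16l1 reversed in knockout (0.0049). That setting also lost the wild-type calls of Ambra1, Atg2b and Epg5. In knockout it lost those of Atg13, Pik3c3, Pik3r4, Atg2b, Map1lc3b and Epg5. With the replicate block, 2 genes were higher in brain in wild type and 3 in knockout. The block also lost the liver calls of Atg2b and Epg5 in wild type. In knockout it lost those of Atg13, Pik3r4, Atg2b, Atg4d, Map1lc3b and Gabarapl1. It added a liver call of Atg4d in wild type (adjusted p = 0.0483, edgeR). Between genotypes the block changed no call among the genes described, in the livers (whose same-numbered samples deviated together) or in the brains. Leaving out 1 library at a time gave 2 to 3 genes higher in brain in wild type and 2 to 4 in knockout. In wild type the count was 2 without brain 1, brain 3, liver 1 or liver 2. In knockout it was 3 without brain 1 or brain 3, and 2 without liver 1, 2 or 3. In the same fits Atg16l1 ranged from -0.0704 to 0.0686 in wild type and -0.127 to 0.0507 in knockout, and Atg12 from -0.0475 to 0.0805 in wild type. DESeq2's Wald test called 1 gene, Vmp1, higher in knockout liver, and the cause was not tested. With mean coding transcript lengths the median level of the 37 genes was 50.9 TPM in wild-type brain, 49.9 TPM in knockout brain, 26.0 TPM in wild-type liver and 24.3 TPM in knockout liver, against 20.5, 19.1, 9.80 and 10.3 TPM with the union of exons. Genes without a coding transcript are left out of the sum under coding lengths, so these settings differ in scale by construction. With mean coding transcript lengths Gabarapl1's share was 0.40 percentage points larger in brain in place of smaller. With 3 libraries a group, the interval bound farther from 0 had a median size of 0.307 in brain and 0.306 in liver over the 37 genes (log2, knockout over wild type).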
